A study of Mus musculus with 24 samples.

Results

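The synaptic vesicle release machinery is described here through 37 genes, each read from the array's probe sets whose single gene symbol in the platform annotation is that of the gene. The 37 genes are among 20893 genes on the array, and all 37 passed a filter on low values that 10983 genes passed (at least 3 of the 24 arrays above the table's median log2 intensity of 7.61). They fall into 8 roles, which are calcium-sensing synaptotagmins, other synaptotagmins, SNARE proteins, SNARE partners, vesicle membrane proteins and synapsins, Rab3 proteins with their effector rabphilin, active zone proteins and vesicle recycling proteins.

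At a synapse, transmitter-filled vesicles are tethered and primed at the active zone of the presynaptic terminal. Calcium entering with an action potential binds synaptotagmin on the vesicle, and the SNARE proteins of vesicle and plasma membrane then draw the membranes together until they fuse. The vesicle membrane is afterwards retrieved by clathrin, amphiphysin and dynamin, stripped of its coat by synaptojanin and refilled. Cerebellar granule cells, the most numerous neurons of the brain, gain this machinery as they leave the cell cycle and extend parallel fibres. Their dividing precursors are cells from which medulloblastoma, a tumour of the cerebellum, can arise.

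The arrays compared cerebellar tumours of mice with a conditional knockout of Gnas, the gene of the stimulatory G protein alpha subunit that raises cyclic AMP, with normal cerebellum. There were 8 hGFAP:GnasCKO tumours and 8 Oligo1:GnasCKO tumours, all from mice of mixed C57BL/6 x 129 background and dissected at endpoint. The names hGFAP and Oligo1 are those the labels put before GnasCKO, and the labels give neither the deleted part of the gene, nor a check of recombination, nor the ages of the mice. Adult wild-type cerebellum was represented by 5 arrays, of which 2 at postnatal day 60 and 1 labelled only as adult were of mixed C57BL/6 x 129 background, and those at postnatal days 95 and 122 were C57BL/6. Developing wild-type cerebellum was represented by 1 C57BL/6 array each at embryonic day 15, embryonic day 18 and postnatal day 0. The labels call the tumours biological replicates and do not say whether any tissue was pooled. Each value below is a log2 intensity of a gene, so a difference of 1 is a 2-fold difference, and levels of different genes are not set against each other. For a tumour group the lowest, median and highest array are given, for adult cerebellum the arrays are given in the order of the ages above (2 at postnatal day 60, then days 95 and 122, then the array without a stated age), and for developing cerebellum in order of age.

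Gnas itself lay between 7.38 and 9.33 in hGFAP tumours, between 6.96 and 8.41 in Oligo1 tumours and between 9.69 and 9.87 in adult cerebellum, and was lower than in adult cerebellum, with log2 differences of -1.64 ± 0.29 in hGFAP tumours (difference ± SE, adjusted p = 0.000112) and -1.97 in Oligo1 tumours. The number of genes above the filter value ranged from 8774 to 9362 per array apart from hGFAP tumour 5, which had 7903. That tumour stood apart in cell cycle genes and microglia markers too. The median of 9 cell cycle genes was 0.84 above the adult mean in it, against 4.37 to 5.72 in the other hGFAP tumours. Its median of 8 microglia markers was 0.03, against 2.24 to 2.42 in the other hGFAP tumours. Its Gnas level of 9.33 was the highest among the tumours, but that of hGFAP tumour 6 was close at 9.16. Tumour 5 of the hGFAP group is kept in every fit except those that leave arrays out, and counts without it are given. Group means over all arrays, hGFAP tumour 5 included, are given for 2 markers, and such a mean does not describe hGFAP tumour 5 by itself. Gabra6, a receptor subunit of mature granule cells, averaged 12.25 in adult cerebellum. Atoh1, a transcription factor of granule cell precursors, averaged 10.82 in hGFAP tumours and 11.63 in Oligo1 tumours, against 4.98 in adult cerebellum. The granule precursor list as a whole was mixed: of its 10 genes, 6 were higher and 4 did not pass in hGFAP tumours, and 6 were higher, 2 lower and 2 not passing in Oligo1 tumours, against adult cerebellum.

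Most of the 37 genes, which were chosen with earlier results of these data known, were lower in the tumours than in adult cerebellum. In hGFAP tumours 31 of the 37 genes fell, 1 rose and 5 did not pass (limma, adjusted p under 0.05 over all 10983 genes), where 29.8% of all tested genes were called lower and 24.2% higher. In Oligo1 tumours 36 of the 37 genes fell and 1 rose, where 34.5% of all tested genes were called lower and 35.8% higher. The median difference over the 37 genes was -1.21 in hGFAP tumours and -1.97 in Oligo1 tumours, beside -0.02 and 0.04 over all tested genes. The gene that rose in both was Stx1a. The 5 genes that did not pass in hGFAP tumours were Syt5, Syt11, Syt13, Syn3 and Sv2b. Both comparisons use the same 5 adult arrays. In pieces of tissue, fewer cells of a type and less RNA per cell cannot be told apart. Without hGFAP tumour 5 the same 32 genes were called and Syt5 was added, with a median difference of -1.34.

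**Figure D1:**
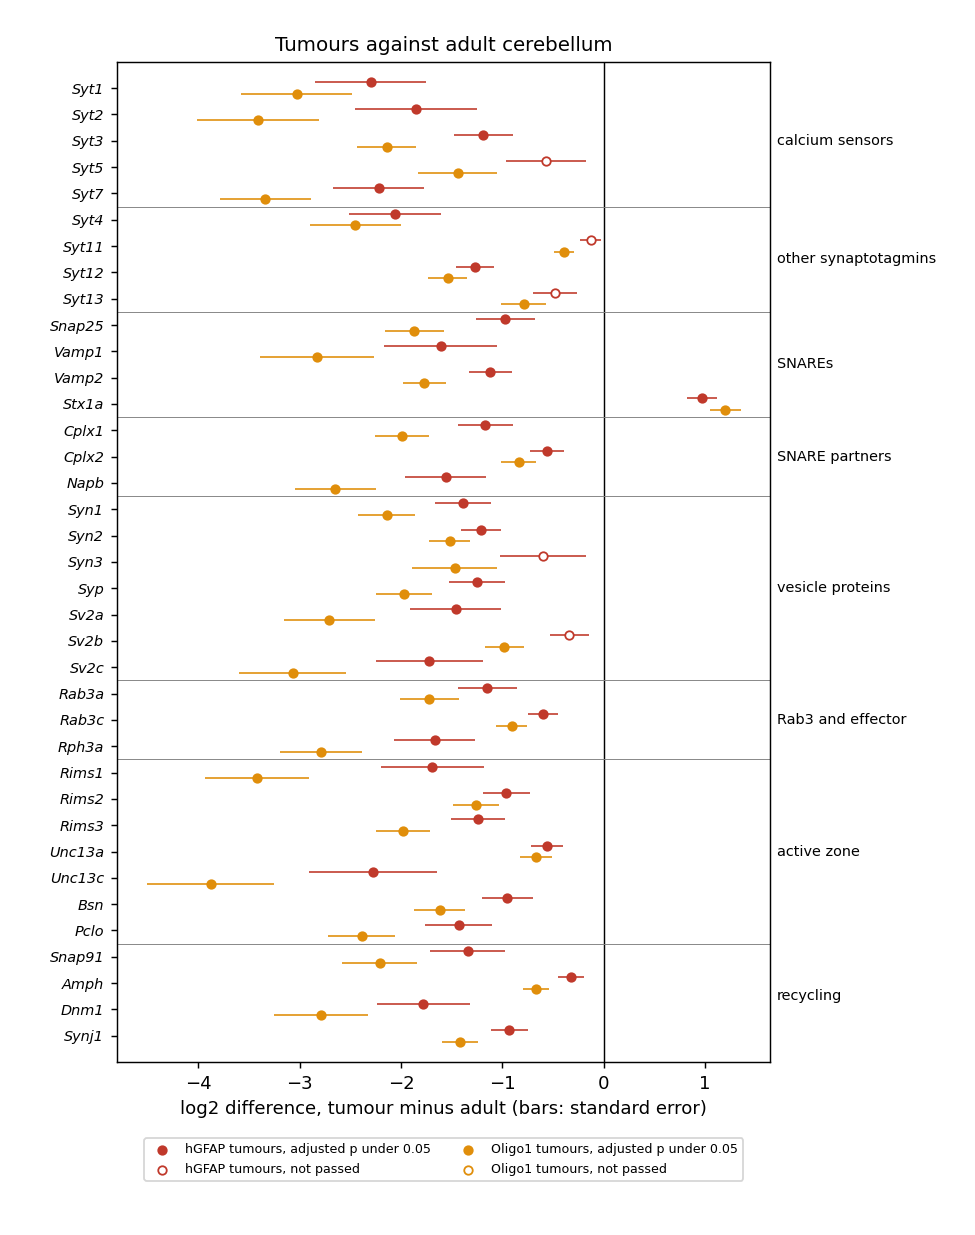
Differences of the 37 genes between tumours and adult cerebellum, by role. Points are log2 differences, tumour minus adult, for 8 hGFAP tumours (red) and 8 Oligo1 tumours (orange) against 5 adult arrays, bars are standard errors, and open points did not pass an adjusted p of 0.05. Stx1a alone lies right of 0, and the Oligo1 point of every other gene lies left of the hGFAP point.

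Markers of several cell types differed in the same tumours. All 9 markers of mature granule neurons fell in both tumour groups, with medians per array from -4.08 to -0.35 in hGFAP tumours, from -5.25 to -1.57 in Oligo1 tumours and from -0.1 to 0.09 in adult cerebellum, relative to the adult mean. Of 9 Purkinje cell markers, 8 fell in hGFAP tumours and 9 in Oligo1 tumours. Of 6 oligodendrocyte markers, 3 fell in hGFAP tumours and 6 in Oligo1 tumours. All 7 markers of interneurons and unipolar brush cells fell in both tumour groups. Of 10 markers of astrocytes and Bergmann glia, 4 fell and 1 rose in hGFAP tumours, and 9 fell and 1 rose in Oligo1 tumours. All 8 microglia markers rose in both tumour groups, with median differences of 2.06 in hGFAP tumours and 2.4 in Oligo1 tumours. Of 7 endothelial markers, 2 fell in hGFAP tumours, and 2 fell and 1 rose in Oligo1 tumours. The 9 cell cycle genes tested rose in both tumour groups. Of 8 pan-neuronal genes, 2 were lower and 1 higher in hGFAP tumours, and 4 were lower and 1 higher in Oligo1 tumours. Their per-array medians were -1.25 to -0.14 in hGFAP tumours, -1.31 to -0.43 in Oligo1 tumours and -0.05 to 0.18 in adult cerebellum. The part of these cell types in the differences of the release genes was not tested, and this holds for each of the 8 roles described below.

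**Figure D2:**
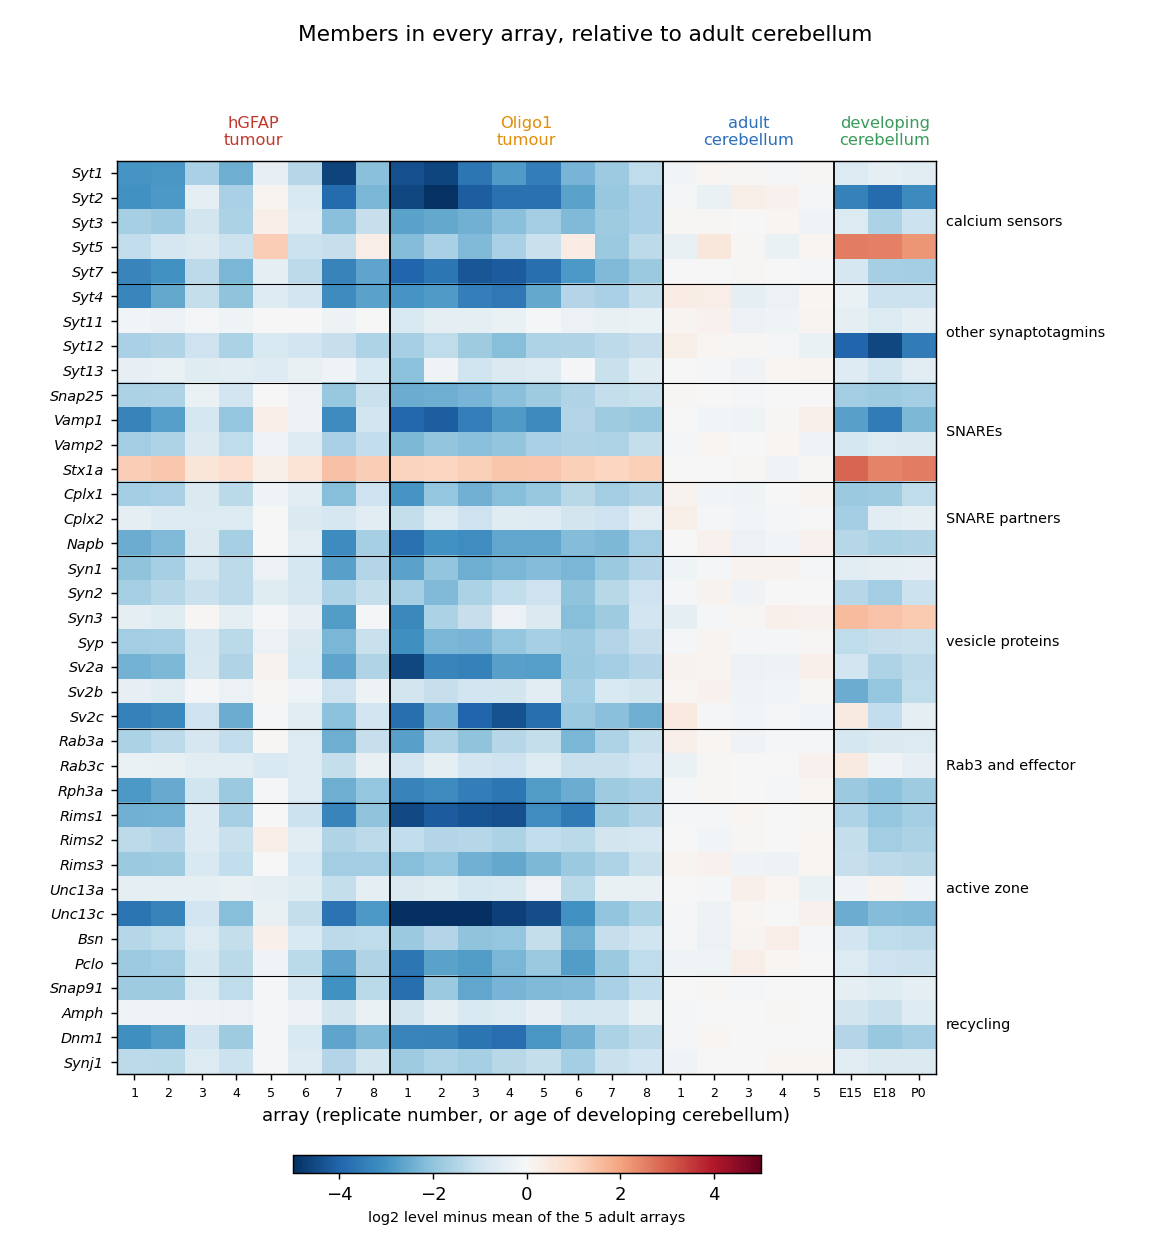
The 37 genes in each of the 24 arrays, as log2 level minus the mean of the 5 adult arrays, with roles from top to bottom and groups from left to right. hGFAP tumour 5 is close to the adult arrays, Stx1a is above the adult mean in all tumours, and Syt5, Syn3 and Stx1a are above it in the 3 developing arrays.

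Against developing cerebellum the picture was mixed. In hGFAP tumours 7 of the 37 genes were lower, 4 were higher and 26 did not pass, where 13.3% of all tested genes were called lower and 15% higher. In Oligo1 tumours 19 were lower, 2 were higher and 16 did not pass, where 19.9% were called lower and 27.5% higher. The median difference was -0.07 in hGFAP tumours and -0.88 in Oligo1 tumours, beside 0.06 and 0.12 over all tested genes. Against the same developing arrays, 3 of 7 interneuron and unipolar brush cell markers and 4 of 8 pan-neuronal genes were lower in hGFAP tumours, and 7 of 7 and 7 of 8 in Oligo1 tumours. Of 9 Purkinje cell markers, 2 were higher in hGFAP tumours, and 4 were lower and 1 higher in Oligo1 tumours. Of 6 oligodendrocyte markers, 6 were higher in hGFAP tumours and 1 in Oligo1 tumours, and all 8 microglia markers were higher in both. Of 9 granule neuron markers, 3 were higher in hGFAP tumours, and in Oligo1 tumours all 9 did not pass (median differences 1.84 in hGFAP tumours and 0.31 in Oligo1 tumours). The part of these cell types in the differences was not tested. All tumours were of mixed background and all developing arrays C57BL/6. These counts rest on 3 arrays of different ages and change with the design. Without the embryonic day 15 array 7 genes were called in hGFAP tumours and 14 in Oligo1 tumours. Without the embryonic day 18 array 6 were called in hGFAP tumours. With tumours 5 to 8 only, 7 were called in hGFAP tumours and 9 in Oligo1 tumours. With tumours 1 to 4 only, the counts were 17 in hGFAP tumours and 29 in Oligo1 tumours. With strain as a covariate 3 were called in hGFAP tumours (2 lower and 1 higher) and 4 in Oligo1 tumours (3 lower and 1 higher). Differences of single genes from developing cerebellum given below come from the fit without strain unless stated.

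Between the normal tissues, adult cerebellum had 23 of the 37 genes higher and 3 lower than developing cerebellum, with 11 not passing, where 25.5% of all tested genes were called higher and 20.2% lower. The median difference was 1.11, beside 0.05 over all tested genes. The 3 lower genes were Stx1a, Syt5 and Syn3. With strain as a covariate, or with only the 2 C57BL/6 adult arrays, 14 genes were called. A fit of these 2 groups alone called 34 genes, 31 higher and 3 lower in adult cerebellum. The main fit takes 1 estimate of spread per gene from all 4 groups, and the tumours varied more than the normal arrays. A gene that did not pass is therefore not shown to be equal in the 2 normal tissues. All 9 granule neuron markers and all 6 oligodendrocyte markers were also higher in adult than in developing cerebellum, and 8 of 9 cell cycle genes were lower, and their part in these differences was not tested.

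**Figure D3:**
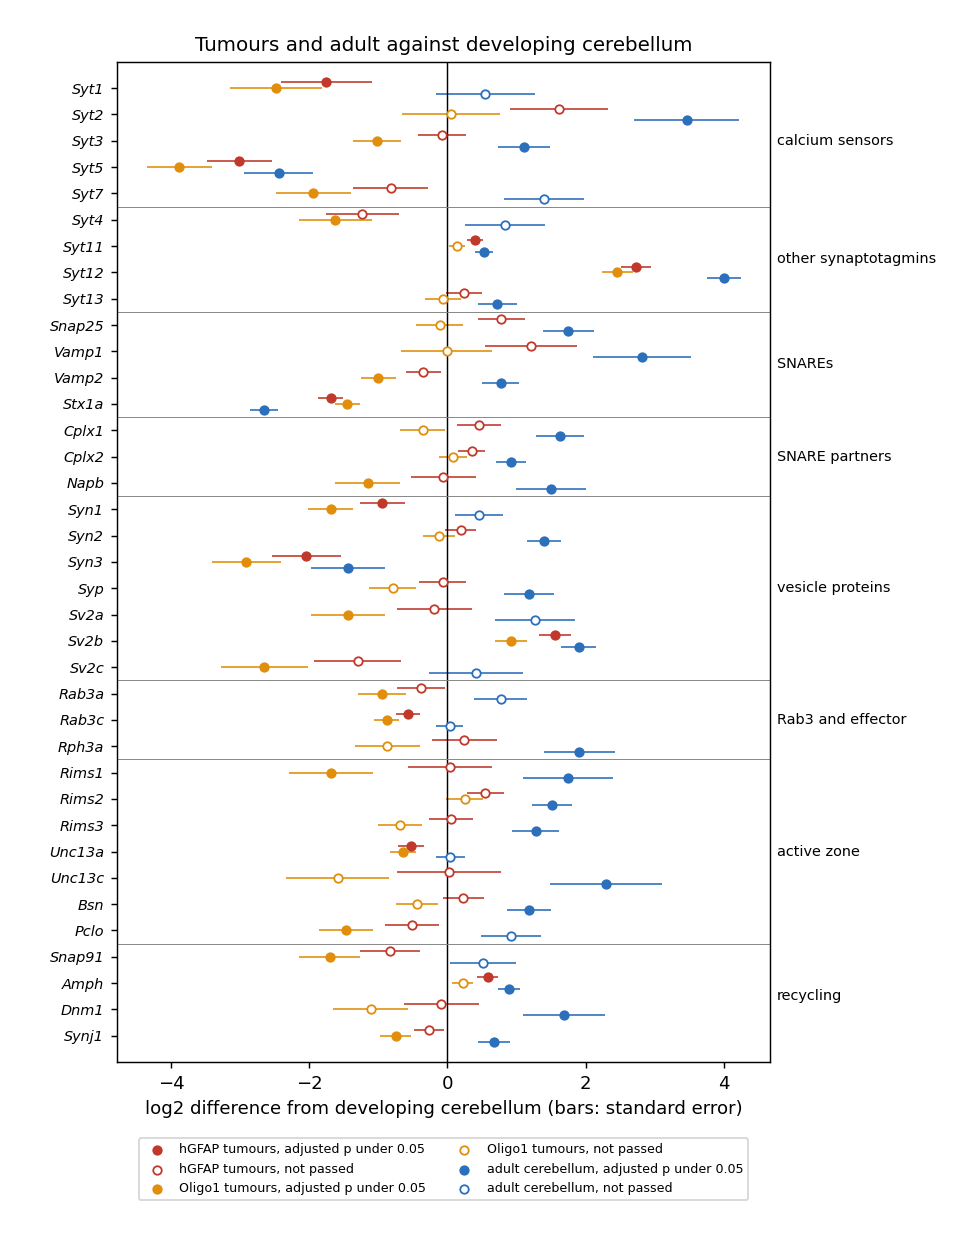
Differences of the 37 genes from developing cerebellum (3 arrays), by role, for hGFAP tumours, Oligo1 tumours and adult cerebellum. Points are log2 differences, bars are standard errors and open points did not pass an adjusted p of 0.05. Syt12 is right of 0 in all 3 comparisons, and Stx1a, Syt5 and Syn3 are left of 0 in all 3.

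Since cyclic AMP acts on transcription partly through the cyclic AMP response element, and many neuronal genes carry an element bound by the repressor REST, the promoters of the genes were searched for both. The 250 bases before to 50 bases after the start of a gene in RefSeq (GRCm38.p6) were found for 28 of the 37 genes. The full cyclic AMP response element, TGACGTCA, was present in 1 of the 28, or 3.57%, beside 2.03% of 27025 genes with a promoter in the table. Its core TGACG, which the full element contains, was present on either strand in 7 of the 28, or 25%, beside 23% of genes. The left part of the REST element, TTCAGCACC on either strand, was present in 2 of the 28, or 7.14%, beside 0.433% of genes, and its right part, GGACAGC, in 2 of the 28 beside 7.59%. A match is a run of letters and no measured site. The 250 bases upstream of 3 genes are shown with matches in capitals. Syn1 (chrX:20920919-20921168, minus strand) is the gene with the full response element, 159 bases before the start, and it has the left part of the REST element 232 bases before the start. Stx1a (chr5:135023232-135023481, plus strand) is the gene that rose, and holds the core TGACG 144 bases before the start. Unc13c (chr9:73969038-73969287, minus strand) is the gene with the largest fall in Oligo1 tumours, and holds none of the letters searched.
Syn1: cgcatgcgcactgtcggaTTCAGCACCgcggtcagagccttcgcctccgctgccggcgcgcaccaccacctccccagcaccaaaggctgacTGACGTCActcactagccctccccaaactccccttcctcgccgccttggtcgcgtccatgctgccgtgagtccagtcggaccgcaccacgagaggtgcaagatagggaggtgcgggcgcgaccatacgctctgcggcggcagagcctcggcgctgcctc
Stx1a: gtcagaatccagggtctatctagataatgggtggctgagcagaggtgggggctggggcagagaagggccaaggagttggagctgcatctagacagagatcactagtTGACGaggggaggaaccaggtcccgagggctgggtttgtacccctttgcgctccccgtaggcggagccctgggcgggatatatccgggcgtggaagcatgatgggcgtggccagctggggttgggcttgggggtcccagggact
Unc13c: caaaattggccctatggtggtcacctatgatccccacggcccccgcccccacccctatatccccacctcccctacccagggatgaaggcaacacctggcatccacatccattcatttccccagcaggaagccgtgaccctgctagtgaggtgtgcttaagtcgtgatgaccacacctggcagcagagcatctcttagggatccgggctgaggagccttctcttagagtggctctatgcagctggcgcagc

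Synaptotagmins that bind calcium trigger or modulate fusion, and all 5 of those examined fell in Oligo1 tumours against adult cerebellum, 4 of them also in hGFAP tumours. Syt2, the fast calcium sensor of many hindbrain synapses, lay at 6.66, 8.55 and 10.64 in hGFAP tumours, at 5.57, 6.79 and 8.88 in Oligo1 tumours, at 10.42, 10.16, 10.82, 10.71 and 10.44 in adult cerebellum and at 7.15, 6.67 and 7.34 in developing cerebellum. Among the tumours, only hGFAP tumour 5 reached the adult arrays, and the developing arrays lay within the range of the Oligo1 tumours. Syt2 was lower than in adult cerebellum, with log2 differences of -1.85 ± 0.6 in hGFAP tumours (3.6-fold, adjusted p = 0.0125) and -3.41 ± 0.6 in Oligo1 tumours (10.6-fold, adjusted p = 3.06e-05). Adult cerebellum exceeded developing cerebellum by 3.46 ± 0.76 (11-fold, adjusted p = 0.000862). With strain as a covariate the fall of Syt2 in hGFAP tumours did not pass (-1.68, adjusted p = 0.0637).

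Syt1, the fast sensor of forebrain synapses, and Syt7, a high-affinity sensor linked to slow and facilitated release, were below all adult arrays in each tumour. Syt1 fell by 2.3 in hGFAP tumours and fell by 3.03 in Oligo1 tumours. Its level was 12.38 ± 0.1 in adult cerebellum (SD, n = 5) and 11.83 ± 0.11 in developing cerebellum (n = 3), with no overlap of the arrays. The difference of 0.55 ± 0.71 did not pass (adjusted p = 0.553). That SE rests on a spread shared with the tumours, whose SD was 1.26 in hGFAP tumours and 1.19 in Oligo1 tumours. Syt1 was lower than in developing cerebellum, with log2 differences of -1.75 in hGFAP tumours, at the edge of the threshold (adjusted p = 0.05), and -2.48 in Oligo1 tumours (adjusted p = 0.00398). Syt7 fell by 2.22 in hGFAP tumours and fell by 3.34 in Oligo1 tumours. Syt3, a plasma membrane sensor, lay at 6.64, 7.35 and 9.05 in hGFAP tumours, at 6.03, 6.55 and 7.1 in Oligo1 tumours, at 8.78, 8.78, 8.7, 8.83 and 8.49 in adult cerebellum and at 8.04, 7.13 and 7.63 in developing cerebellum. It fell by 1.19 in hGFAP tumours, where tumour 5 lay above all adult arrays and the other 7 below them, and fell by 2.14 in Oligo1 tumours.

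Syt5, a calcium-binding synaptotagmin also found on dense-core vesicles, followed another order. It lay at 7.44, 7.72 and 9.89 in hGFAP tumours, at 6.47, 7.05 and 9.03 in Oligo1 tumours, at 8.3, 9.23, 8.74, 8.35 and 8.76 in adult cerebellum and at 11.24, 11.2 and 10.9 in developing cerebellum. All tumour and adult arrays were below the 3 developing arrays, while hGFAP tumour 8 and Oligo1 tumour 6 lay within the adult range and hGFAP tumour 5 above it. Syt5 was lower than in developing cerebellum, with log2 differences of -3.01 ± 0.47 in hGFAP tumours (8.05-fold, adjusted p = 4.03e-05), -3.88 ± 0.47 in Oligo1 tumours (14.7-fold, adjusted p = 1.04e-06) and -2.44 ± 0.5 in adult cerebellum (adjusted p = 0.000456). Against adult cerebellum it fell by 1.44 in Oligo1 tumours, and the difference of -0.57 in hGFAP tumours did not pass with all arrays (adjusted p = 0.228) and passed without hGFAP tumour 5 (-0.82, adjusted p = 0.0362).

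**Figure D4:**
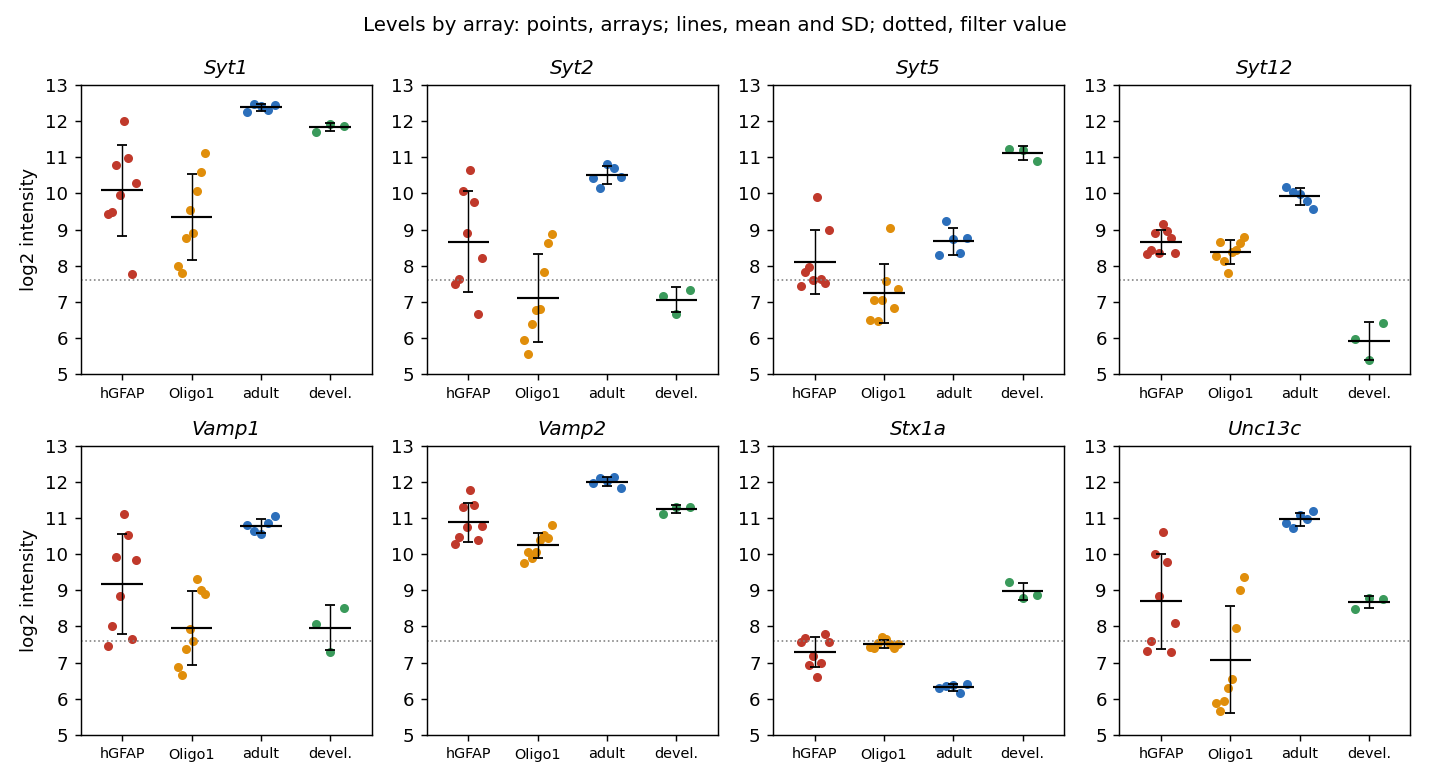
Log2 intensity by array of 8 genes in hGFAP tumours (n = 8), Oligo1 tumours (n = 8), adult cerebellum (n = 5) and developing cerebellum (n = 3), with mean and SD. The dotted line is the filter value of 7.61. Syt12 is near 6 in developing cerebellum and above 7.7 in every tumour, and Stx1a is above the adult arrays and below the developing arrays in every tumour.

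The 4 synaptotagmins that do not act as calcium sensors for fast release differed widely. Syt4, a regulator of dense-core vesicle release whose calcium binding is weakened, lay at 5.49, 6.45 and 8.09 in hGFAP tumours, at 5.18, 6.06 and 7.56 in Oligo1 tumours, at 9.1, 9.06, 8.28, 8.45 and 8.83 in adult cerebellum and at 8.42, 7.68 and 7.66 in developing cerebellum. All tumours were below the adult arrays, and it fell by 2.06 ± 0.45 in hGFAP tumours (4.17-fold, adjusted p = 0.000672) and fell by 2.45 ± 0.45 in Oligo1 tumours (5.46-fold, adjusted p = 5.25e-05). Syt11, which restrains endocytosis and has been linked to Parkinson's disease, lay at 11.33, 11.51 and 11.67 in hGFAP tumours, at 10.89, 11.28 and 11.57 in Oligo1 tumours, at 11.78, 11.84, 11.36, 11.42 and 11.79 in adult cerebellum and at 11.17, 10.96 and 11.2 in developing cerebellum. Its arrays kept to a narrow range in every group: it fell by 0.39 ± 0.1 in Oligo1 tumours against adult cerebellum (1.31-fold, adjusted p = 0.0021), which was the least fall among the 37 genes, and the difference of -0.13 in hGFAP tumours did not pass (adjusted p = 0.296). All hGFAP tumours were above the developing arrays, by 0.4 on average (adjusted p = 0.0178), and with strain as a covariate this difference was -0.02 (adjusted p = 0.977). Syt13, a synaptotagmin without calcium binding, fell by 0.79 in Oligo1 tumours, and its difference of -0.48 in hGFAP tumours did not pass although all 8 tumours were below the adult arrays.

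Syt12, a synaptotagmin without calcium binding that is phosphorylated by the cyclic AMP-dependent kinase, separated all groups from developing cerebellum. It lay at 8.31, 8.59 and 9.15 in hGFAP tumours, at 7.79, 8.41 and 8.78 in Oligo1 tumours, at 10.19, 10.03, 9.98, 9.8 and 9.58 in adult cerebellum and at 5.96, 5.38 and 6.42 in developing cerebellum. The tumours lay between the adult and the developing arrays with no overlap on either side. It was higher than in developing cerebellum by 2.73 ± 0.22 in hGFAP tumours (6.64-fold, adjusted p = 5.06e-09), by 2.46 ± 0.22 in Oligo1 tumours (5.5-fold, adjusted p = 1.54e-08) and by 4 ± 0.24 in adult cerebellum (16-fold, adjusted p = 4.34e-11). Against adult cerebellum it fell by 1.27 in hGFAP tumours and fell by 1.54 in Oligo1 tumours. Its 3 developing arrays were below the filter value, where an array resolves differences least.

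Among the SNARE proteins, which form the bundle that fuses the membranes, 3 fell and 1 rose in each tumour group against adult cerebellum. Vamp1, the vesicle SNARE that prevails in brainstem and spinal cord, lay at 7.45, 9.35 and 11.1 in hGFAP tumours, at 6.65, 7.77 and 9.31 in Oligo1 tumours, at 10.8, 10.63, 10.57, 10.86 and 11.05 in adult cerebellum and at 8.07, 7.3 and 8.52 in developing cerebellum. The hGFAP tumours spanned the whole distance from the developing to the adult arrays. It fell by 1.61 ± 0.56 in hGFAP tumours (3.05-fold, adjusted p = 0.0183) and fell by 2.83 ± 0.56 in Oligo1 tumours (7.09-fold, adjusted p = 0.000113), and the fall in hGFAP tumours did not pass with strain as a covariate (adjusted p = 0.051) or with tumours 5 to 8 only (adjusted p = 0.161).

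Vamp2, the main vesicle SNARE of most brain synapses, lay at 10.27, 10.76 and 11.78 in hGFAP tumours, at 9.76, 10.21 and 10.8 in Oligo1 tumours, at 11.96, 12.1, 12.02, 12.12 and 11.84 in adult cerebellum and at 11.11, 11.31 and 11.29 in developing cerebellum. All tumours were below the adult arrays and all Oligo1 tumours were also below the developing arrays. It fell by 1.12 in hGFAP tumours and fell by 1.77 in Oligo1 tumours against adult cerebellum, and fell by 1 in Oligo1 tumours against developing cerebellum. Snap25, the plasma membrane SNARE partner, lay at 11.54, 12.39 and 13.44 in hGFAP tumours, at 10.94, 11.5 and 12.33 in Oligo1 tumours, at 13.48, 13.47, 13.39, 13.43 and 13.41 in adult cerebellum and at 11.7, 11.64 and 11.72 in developing cerebellum. It fell by 0.97 in hGFAP tumours and fell by 1.87 in Oligo1 tumours. Adult cerebellum exceeded developing cerebellum by 1.75, and the differences of the tumours from developing cerebellum did not pass (0.78 in hGFAP tumours and -0.11 in Oligo1 tumours).

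Stx1a, the plasma membrane syntaxin that anchors the SNARE bundle, was the exception. It lay at 6.61, 7.37 and 7.79 in hGFAP tumours, at 7.4, 7.52 and 7.71 in Oligo1 tumours, at 6.31, 6.36, 6.38, 6.16 and 6.4 in adult cerebellum and at 9.24, 8.8 and 8.88 in developing cerebellum. Each tumour was above all adult arrays and below all developing arrays, and hGFAP tumour 5 was the lowest of the tumours. Stx1a rose against adult cerebellum by 0.97 ± 0.15 in hGFAP tumours (1.95-fold, adjusted p = 3.27e-05) and by 1.2 ± 0.15 in Oligo1 tumours (2.3-fold, adjusted p = 7.72e-07). Against developing cerebellum it was lower, with log2 differences of -1.69 ± 0.18 in hGFAP tumours (3.22-fold, adjusted p = 3.22e-07), -1.45 ± 0.18 in Oligo1 tumours (2.74-fold, adjusted p = 1.64e-06) and -2.65 ± 0.2 in adult cerebellum (6.3-fold, adjusted p = 1.54e-09). Of its 8 brighter probe sets, 7 were higher in hGFAP tumours than in adult cerebellum. All adult arrays and most tumours lay below the filter value of 7.61, where an array resolves differences least, and under a stricter filter Stx1a was not tested.

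All 3 SNARE partners fell in both tumour groups. Napb, the beta-SNAP that lets the ATPase NSF take used SNARE bundles apart, lay at 8.92, 10.4 and 12.03 in hGFAP tumours, at 8.35, 9.46 and 10.33 in Oligo1 tumours, at 12.08, 12.28, 11.77, 11.91 and 12.27 in adult cerebellum and at 10.65, 10.48 and 10.55 in developing cerebellum. It fell by 1.56 ± 0.4 in hGFAP tumours (2.95-fold, adjusted p = 0.00244), where only tumour 5 overlapped the adult arrays, and fell by 2.65 ± 0.4 in Oligo1 tumours (6.29-fold, adjusted p = 5.05e-06). The complexins bind the assembled bundle and both hold it and prepare it for calcium. Cplx1 lay at 9.84, 10.77 and 11.74 in hGFAP tumours, at 9, 10.05 and 10.56 in Oligo1 tumours, at 12.12, 11.8, 11.76, 11.99 and 12.11 in adult cerebellum and at 10.09, 10.19 and 10.69 in developing cerebellum, and it fell by 1.17 in hGFAP tumours and fell by 1.99 in Oligo1 tumours. Cplx2 lay at 8.56, 8.76 and 9.4 in hGFAP tumours, at 8.21, 8.62 and 8.84 in Oligo1 tumours, at 9.72, 9.33, 9.27, 9.31 and 9.43 in adult cerebellum and at 7.7, 8.83 and 8.96 in developing cerebellum. Its differences were -0.56 ± 0.17 in hGFAP tumours (adjusted p = 0.00875) and -0.84 ± 0.17 in Oligo1 tumours (adjusted p = 0.000188), and the fall did not pass in hGFAP tumours with the median of the probe sets (-0.33, adjusted p = 0.0912).

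Of the 7 proteins of the vesicle membrane and the synapsins, 5 fell in hGFAP tumours and 7 in Oligo1 tumours. Sv2c, a member of the SV2 family of vesicle transporters with a restricted pattern in the brain, lay at 5.94, 7.8 and 9.24 in hGFAP tumours, at 4.99, 6.23 and 7.49 in Oligo1 tumours, at 9.81, 9.24, 9.21, 9.22 and 9.2 in adult cerebellum and at 9.77, 8.12 and 8.88 in developing cerebellum. Every Oligo1 tumour was below every normal array. It fell by 1.72 ± 0.53 in hGFAP tumours (3.29-fold, adjusted p = 0.00906) and fell by 3.07 ± 0.53 in Oligo1 tumours (8.39-fold, adjusted p = 2.48e-05), and fell by 2.65 in Oligo1 tumours against developing cerebellum. Sv2a, the widespread family member and target of the drug levetiracetam, lay at 8.97, 10.08 and 11.75 in hGFAP tumours, at 7.05, 8.85 and 10.13 in Oligo1 tumours, at 11.75, 11.74, 11.31, 11.33 and 11.83 in adult cerebellum and at 10.62, 10.05 and 10.3 in developing cerebellum, and it fell by 1.46 in hGFAP tumours and fell by 2.71 in Oligo1 tumours.

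Sv2b differed from its relatives. It lay at 10.53, 11.31 and 11.62 in hGFAP tumours, at 9.89, 10.65 and 11.07 in Oligo1 tumours, at 11.68, 11.78, 11.35, 11.43 and 11.65 in adult cerebellum and at 9.08, 9.65 and 10.31 in developing cerebellum. All hGFAP tumours were above the developing arrays and 3 of them reached the adult arrays. Sv2b was higher than in developing cerebellum by 1.56 ± 0.23 in hGFAP tumours (2.94-fold, adjusted p = 2.35e-05) and by 0.92 ± 0.23 in Oligo1 tumours (1.89-fold, adjusted p = 0.00275). Strain goes with this comparison, and with strain as a covariate only 1 of the 37 genes was called higher in each tumour group. Against adult cerebellum it fell by 0.98 in Oligo1 tumours, and the difference of -0.34 in hGFAP tumours did not pass (adjusted p = 0.139).

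Synapsins coat vesicles and hold them in the reserve pool, and their phosphorylation by the cyclic AMP-dependent kinase and by calcium-dependent kinases frees the vesicles. Syn1, whose promoter is shown above, lay at 8.65, 9.99 and 11.08 in hGFAP tumours, at 8.7, 9.16 and 9.93 in Oligo1 tumours, at 11.18, 11.33, 11.56, 11.55 and 11.26 in adult cerebellum and at 10.85, 10.93 and 10.98 in developing cerebellum. All tumours were below the adult arrays, and only hGFAP tumour 5 reached the developing arrays. It fell by 1.39 in hGFAP tumours and fell by 2.14 in Oligo1 tumours against adult cerebellum, and against developing cerebellum fell by 0.94 in hGFAP tumours and fell by 1.69 in Oligo1 tumours. Syn2 fell by 1.21 in hGFAP tumours and fell by 1.52 in Oligo1 tumours against adult cerebellum and was higher by 1.4 in adult than in developing cerebellum. Syn3, the synapsin of early neurons, averaged 8.48 ± 0.92 in hGFAP tumours, 7.61 ± 0.92 in Oligo1 tumours, 9.08 ± 0.28 in adult cerebellum and 10.52 ± 0.12 in developing cerebellum (SD, n = 8, 8, 5 and 3). It was lower than in developing cerebellum, with log2 differences of -2.04 in hGFAP tumours, -2.91 in Oligo1 tumours and -1.44 in adult cerebellum. Syp, or synaptophysin, the most used marker of vesicles in pathology, lay at 9.02, 10.09 and 11.02 in hGFAP tumours, at 8.24, 9.43 and 10.15 in Oligo1 tumours, at 11.22, 11.45, 11.23, 11.26 and 11.38 in adult cerebellum and at 10.05, 10.16 and 10.19 in developing cerebellum. All tumours were below the adult arrays, with differences of -1.25 in hGFAP tumours and -1.97 in Oligo1 tumours, and 4 hGFAP tumours and 1 Oligo1 tumour were as high as the developing arrays.

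Rab3 GTPases ride on vesicles and guide them to the active zone, and all 3 genes of this role fell in both tumour groups. Rph3a, the effector rabphilin that binds Rab3 and phospholipids, lay at 8.06, 9.04 and 10.85 in hGFAP tumours, at 7.33, 7.95 and 9.28 in Oligo1 tumours, at 10.85, 10.99, 10.93, 10.87 and 11.03 in adult cerebellum and at 9.06, 8.87 and 9.14 in developing cerebellum. It fell by 1.67 ± 0.4 in hGFAP tumours (3.19-fold, adjusted p = 0.00139) and fell by 2.79 ± 0.4 in Oligo1 tumours (6.9-fold, adjusted p = 2.88e-06). Rab3c lay at 9.11, 9.77 and 9.98 in hGFAP tumours, at 9.2, 9.35 and 9.81 in Oligo1 tumours, at 10, 10.38, 10.35, 10.3 and 10.55 in adult cerebellum and at 10.78, 10.14 and 9.92 in developing cerebellum. Its difference between adult and developing cerebellum was 0.03 ± 0.2 and did not pass. All tumours were below the adult arrays, with differences of -0.6 ± 0.15 in hGFAP tumours (adjusted p = 0.00233) and -0.91 ± 0.15 in Oligo1 tumours (adjusted p = 1.76e-05). Against developing cerebellum Rab3c was lower, with log2 differences of -0.57 in hGFAP tumours (adjusted p = 0.0214) and -0.88 in Oligo1 tumours (adjusted p = 0.000507). Rab3a, the most abundant Rab3 of brain, fell by 1.15 in hGFAP tumours and fell by 1.72 in Oligo1 tumours against adult cerebellum.

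All 7 active zone genes fell in both tumour groups. Unc13c, a Munc13 priming protein that in the brain is found mainly in the cerebellum, lay at 7.29, 8.47 and 10.61 in hGFAP tumours, at 5.67, 6.42 and 9.38 in Oligo1 tumours, at 10.85, 10.73, 11.08, 10.97 and 11.2 in adult cerebellum and at 8.47, 8.79 and 8.76 in developing cerebellum. Each tumour was below all adult arrays, and Oligo1 tumours 1 to 5 were below all hGFAP tumours. It fell by 2.28 ± 0.63 in hGFAP tumours (4.84-fold, adjusted p = 0.00443) and fell by 3.88 ± 0.63 in Oligo1 tumours (14.7-fold, adjusted p = 1.26e-05), and its 31 brighter probe sets were all lower in hGFAP tumours than in adult cerebellum. Its relative Unc13a, the Munc13 of most excitatory synapses, lay at 8.56, 9.31 and 9.38 in hGFAP tumours, at 8.42, 9.1 and 9.47 in Oligo1 tumours, at 9.8, 9.73, 10.04, 9.86 and 9.42 in adult cerebellum and at 9.61, 9.96 and 9.62 in developing cerebellum. Its differences from adult cerebellum were -0.56 ± 0.16 in hGFAP tumours (adjusted p = 0.00527) and -0.67 ± 0.16 in Oligo1 tumours (adjusted p = 0.000747), and it was lower than in developing cerebellum, with log2 differences of -0.53 in hGFAP tumours and -0.64 in Oligo1 tumours. Adult and developing cerebellum differed by 0.04 ± 0.21 for Unc13a and by 2.3 ± 0.81 for Unc13c (adjusted p = 0.0239).

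The RIM proteins join vesicles, Munc13 and calcium channels. Rims1, which is also a substrate of the cyclic AMP-dependent kinase, lay at 8.18, 9.65 and 11.47 in hGFAP tumours, at 6.98, 7.66 and 9.98 in Oligo1 tumours, at 11.41, 11.43, 11.59, 11.53 and 11.54 in adult cerebellum and at 9.94, 9.56 and 9.79 in developing cerebellum. It fell by 1.69 ± 0.51 in hGFAP tumours (3.24-fold, adjusted p = 0.0079) and fell by 3.42 ± 0.51 in Oligo1 tumours (10.7-fold, adjusted p = 4.79e-06). Rims3, a short RIM, lay at 7.93, 8.28 and 9.74 in hGFAP tumours, at 7.23, 7.74 and 8.64 in Oligo1 tumours, at 9.91, 9.98, 9.59, 9.5 and 9.88 in adult cerebellum and at 8.61, 8.45 and 8.4 in developing cerebellum. Both genes overlapped the adult arrays only in hGFAP tumour 5. Rims2 fell by 0.96 in hGFAP tumours and by 1.26 in Oligo1 tumours, and 32 of its 34 brighter probe sets were lower in hGFAP tumours.

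Bassoon and piccolo are giant scaffolds of the active zone. Bsn lay at 8.32, 8.51 and 10 in hGFAP tumours, at 7.28, 8.08 and 8.73 in Oligo1 tumours, at 9.66, 9.43, 9.86, 10.06 and 9.63 in adult cerebellum and at 8.78, 8.46 and 8.41 in developing cerebellum. Pclo lay at 8.72, 9.9 and 11.16 in hGFAP tumours, at 7.72, 8.87 and 10.06 in Oligo1 tumours, at 11.11, 11.14, 11.67, 11.45 and 11.33 in adult cerebellum and at 10.65, 10.31 and 10.28 in developing cerebellum. Again hGFAP tumour 5 was the only tumour within the adult range. Bsn fell by 0.95 in hGFAP tumours and fell by 1.62 in Oligo1 tumours, and Pclo fell by 1.43 in hGFAP tumours and fell by 2.39 in Oligo1 tumours.

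The 4 recycling genes fell in both tumour groups. Dnm1, the neuronal dynamin that cuts the vesicle neck, lay at 9.12, 10.19 and 12.12 in hGFAP tumours, at 8.37, 9.05 and 10.87 in Oligo1 tumours, at 12.12, 12.26, 12.16, 12.17 and 12.13 in adult cerebellum and at 10.72, 10.27 and 10.45 in developing cerebellum. It fell by 1.78 ± 0.46 in hGFAP tumours (3.43-fold, adjusted p = 0.00266) and fell by 2.79 ± 0.46 in Oligo1 tumours (6.93-fold, adjusted p = 1.46e-05). Amph, or amphiphysin, which bends the membrane and recruits dynamin, lay at 10.65, 11.3 and 11.48 in hGFAP tumours, at 10.64, 10.84 and 11.19 in Oligo1 tumours, at 11.51, 11.58, 11.54, 11.63 and 11.58 in adult cerebellum and at 10.64, 10.44 and 10.94 in developing cerebellum. Every tumour was below every adult array, but by little: the difference was -0.32 ± 0.13 in hGFAP tumours (adjusted p = 0.0366) and -0.67 ± 0.13 in Oligo1 tumours (adjusted p = 6.15e-05), and the fall in hGFAP tumours did not pass when any of the adult arrays, or hGFAP tumour 7 or 8, was left out (adjusted p from 0.0504 to 0.0729). Against developing cerebellum Amph was higher by 0.58 ± 0.15 in hGFAP tumours (adjusted p = 0.00532).

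Synj1, the lipid phosphatase that sheds the clathrin coat, lay at 8.81, 9.26 and 10.17 in hGFAP tumours, at 8.48, 8.78 and 9.32 in Oligo1 tumours, at 10.1, 10.26, 10.22, 10.35 and 10.36 in adult cerebellum and at 9.7, 9.54 and 9.52 in developing cerebellum, with differences of -0.93 in hGFAP tumours and -1.42 in Oligo1 tumours against adult cerebellum. Snap91, the clathrin adaptor AP180, fell by 1.34 in hGFAP tumours and fell by 2.21 in Oligo1 tumours against adult cerebellum. In Oligo1 tumours both were also lower than in developing cerebellum, Synj1 with a difference of -0.75 (adjusted p = 0.00766) and Snap91 with -1.7 (adjusted p = 0.00347).

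The tumour groups were then compared with each other. In hGFAP tumours 20 of the 37 genes were higher than in Oligo1 tumours, 0 were lower and 17 did not pass, where 10.4% of all tested genes were called higher and 8.54% lower. The median difference was 0.74, beside -0.05 over all tested genes. The largest differences were those of Rims1 (1.72 ± 0.45, 3.3-fold, adjusted p = 0.0196), Unc13c (1.61 ± 0.55, 3.05-fold, adjusted p = 0.046) and Syt2 (1.56 ± 0.52, 2.95-fold, adjusted p = 0.0425). Sv2c, Sv2a, Rph3a and Napb followed, with differences of 1.35, 1.26, 1.11 and 1.09, then Pclo with 0.96, Syt3 with 0.94, Snap25 with 0.9, Cplx1 with 0.83, Syn1 with 0.75, Rims3 with 0.74, Syp with 0.72, Bsn with 0.67, Vamp2 with 0.65, Sv2b with 0.64, Synj1 with 0.48, Amph with 0.36 and Syt11 with 0.26. Stx1a was the gene with a difference below 0 (-0.24), which did not pass. The ranges of the tumour groups, given by role above, overlapped for each of these genes.

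The count changed with the tumours and the fit used, and the cause was not tested. For Rims1, Unc13c, Rph3a, Vamp2, Rims3, Sv2a and Bsn, hGFAP tumours 3, 5 and 6 were the hGFAP tumours above all Oligo1 tumours. The other genes called did not share this set of tumours. For Amph, hGFAP tumours 1 (11.36) and 2 (11.4) were also above the highest Oligo1 tumour (11.19). For Pclo, hGFAP tumour 6 (9.99) was below the highest Oligo1 tumour (10.06). In hGFAP tumours 3, 5 and 6 the medians of the granule neuron markers were -0.81, -0.35 and -0.97 and those of the oligodendrocyte markers -0.19, -0.17 and 0.03, against -4.08 to -1.62 and -3.47 to -0.78 in the other hGFAP tumours. Without hGFAP tumour 5 the median difference was 0.58 and the count was 5, and Rims1, Snap25, Sv2b, Syt3 and Vamp2 were still called. Leaving out single tumours gave 1 to 28 genes, with 1 without hGFAP tumour 3, 2 without hGFAP tumour 6, 1 without Oligo1 tumour 1, 6 without Oligo1 tumour 2, 3 without Oligo1 tumour 3 and 10 without Oligo1 tumour 4, and it was 25, 24 and 28 without hGFAP tumours 1, 2 and 7. A fit of the 16 tumours alone called 0 genes, and so did tumours 5 to 8 of each group, whereas tumours 1 to 4 gave 24. With no filter 9 genes were called, and with array weights 30.

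**Figure D5:**
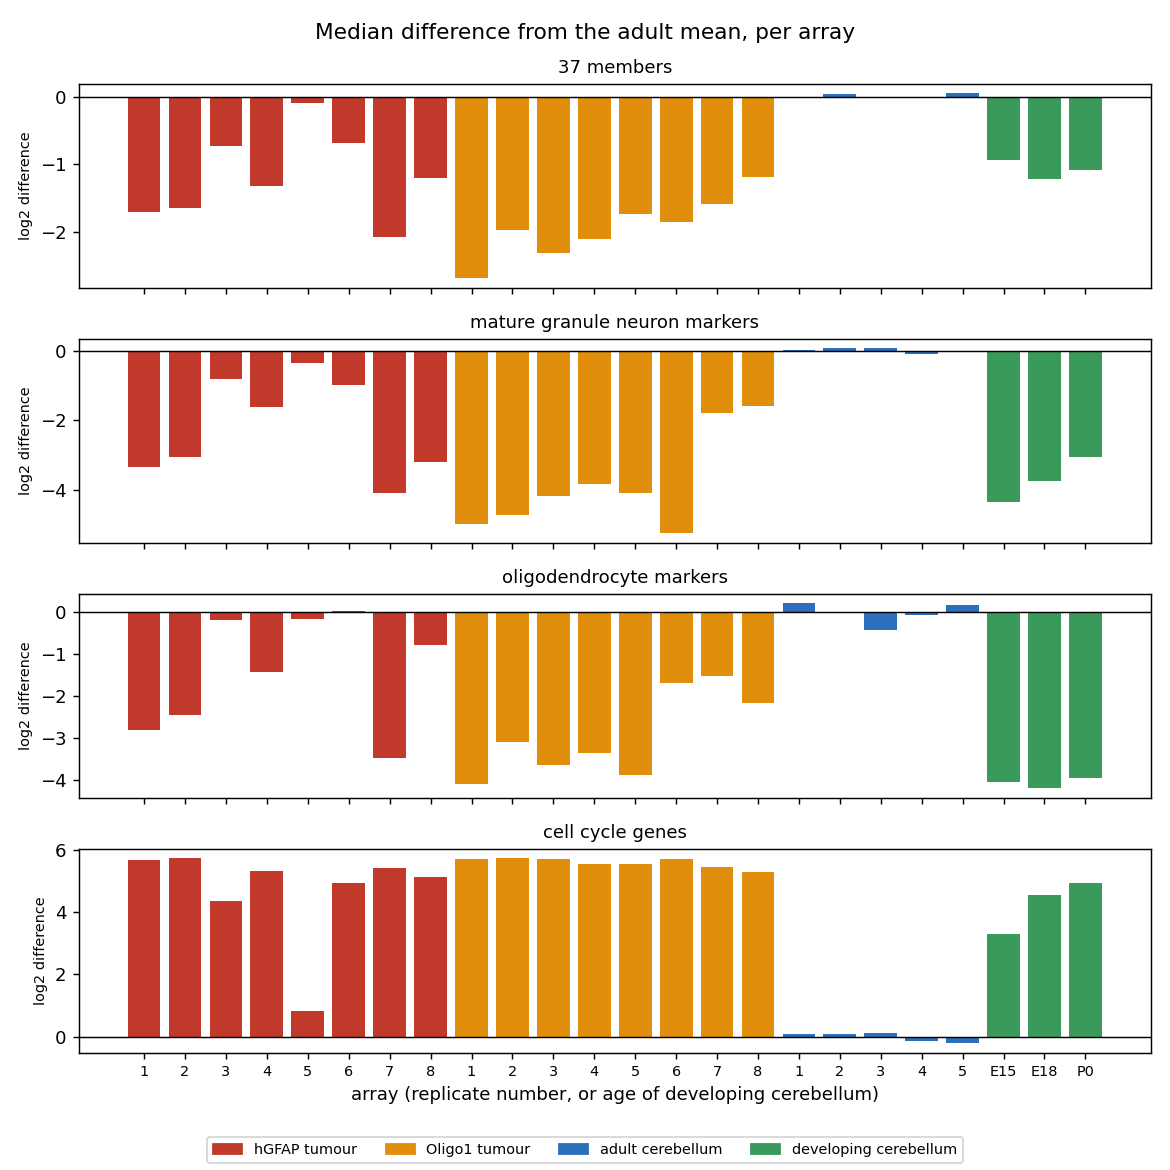
Median difference from the adult mean in each array of the 37 release genes, 9 mature granule neuron markers, 6 oligodendrocyte markers and 9 cell cycle genes (log2). Bars are arrays of hGFAP tumours, Oligo1 tumours, adult and developing cerebellum, the last labelled by age. In hGFAP tumours 3, 5 and 6 the release genes and both marker lists are nearest to adult cerebellum, and hGFAP tumour 5 alone has a low cell cycle median.

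Within the groups the tumours varied far more than the normal arrays. The median of the 37 genes relative to the adult mean was -1.7, -1.64, -0.72, -1.32, -0.09, -0.69, -2.08 and -1.2 in hGFAP tumours 1 to 8, and -2.69, -1.97, -2.32, -2.11, -1.73, -1.85, -1.59 and -1.18 in Oligo1 tumours 1 to 8. It was between -0.02 and 0.06 in adult cerebellum and -0.93, -1.22 and -1.08 in developing cerebellum. In hGFAP tumour 5, 16 of the 37 genes were below the lowest adult array and 5 (Syt3, Syt5, Vamp1, Stx1a and Rims2) above the highest, whereas 33 to 36 were below the lowest in the other hGFAP tumours and 34 to 36 in Oligo1 tumours. The share of all genes outside the adult range was not computed, so these counts describe the arrays and are no result about the release genes. Over all tested genes the median of hGFAP tumour 5 was -0.27 relative to the adult mean. Oligo1 tumours 7 and 8, with the smallest median differences of that group, also had the granule neuron medians nearest to adult cerebellum, at -1.78 and -1.57, against -5.25 to -3.84 in the other Oligo1 tumours.

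A wider set of vesicle genes outside the 37 was examined as well. Of 109 entries in 7 lists, 99 were tested. Against adult cerebellum 60 were lower and 11 higher in hGFAP tumours, with a median of -0.41, and 64 were lower and 11 higher in Oligo1 tumours, with a median of -0.58, where 29.8% and 24.2% of all tested genes were called lower and higher in hGFAP tumours and 34.5% and 35.8% in Oligo1 tumours. Against developing cerebellum 16 were lower and 10 higher in hGFAP tumours and 41 were lower and 8 higher in Oligo1 tumours, where 13.3% and 15% of all tested genes were called lower and higher in hGFAP tumours and 19.9% and 27.5% in Oligo1 tumours. The hGFAP counts lay near the share of all genes. Between the tumour groups 26 were higher and 1 lower in hGFAP tumours, where 10.4% of all tested genes were called higher and 8.54% lower. These counts come from the main fit only, and no other fit was made for the wider lists. For the 37 genes a fit of the tumours alone called 0 in this comparison.

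Glutamate loading showed opposite changes of the paralogous vesicular transporters. Slc17a7, the transporter VGLUT1 of mature parallel fibres, averaged 8.76 in hGFAP tumours, 6.98 in Oligo1 tumours, 11.4 in adult cerebellum and 6.67 in developing cerebellum, and fell by 2.64 in hGFAP tumours and fell by 4.42 in Oligo1 tumours against adult cerebellum. Slc17a6, the transporter VGLUT2 of climbing fibres and young granule cells, averaged 9.6 in hGFAP tumours, 8.64 in Oligo1 tumours, 6.3 in adult cerebellum and 9.83 in developing cerebellum, and rose by 3.31 in hGFAP tumours (adjusted p = 2.26e-05) and by 2.34 in Oligo1 tumours (adjusted p = 0.000295). Of the 10 tested genes for transmitter loading and the proton pump, Slc17a6 was the only one that rose in either tumour group against adult cerebellum, and the other 9 fell.

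Of the 9 presynaptic calcium channel genes, 6 fell and 1 rose in hGFAP tumours, and 7 fell and 1 rose in Oligo1 tumours, beside the shares of all genes called lower and higher of 29.8% and 24.2% in hGFAP tumours and 34.5% and 35.8% in Oligo1 tumours. Cacna2d2, a channel subunit of Purkinje cells among others, fell by 2.14 in hGFAP tumours and fell by 3.7 in Oligo1 tumours. Cacna2d1, its relative, rose by 1.44 in hGFAP tumours and by 1.71 in Oligo1 tumours. In the synaptotagmin and Doc2 list, Syt10 fell by 1.75 in hGFAP tumours and fell by 3.3 in Oligo1 tumours, and Doc2a, a soluble calcium sensor of spontaneous release, rose by 2.28 in hGFAP tumours and by 2.4 in Oligo1 tumours. Among other SNAREs and partners Stx3 fell by 1.48 in hGFAP tumours and fell by 2.51 in Oligo1 tumours, and Stxbp6, or amisyn, which competes for SNARE bundles, rose by 1.73 in hGFAP tumours and by 1.96 in Oligo1 tumours. Among recycling genes Dnm3 fell by 1.44 in hGFAP tumours and fell by 2.65 in Oligo1 tumours, and Sh3gl3, an endophilin, rose by 1.63 in hGFAP tumours and by 1.68 in Oligo1 tumours. Among other active zone genes Lin7a fell by 1.42 in hGFAP tumours and fell by 2.66 in Oligo1 tumours, and Cask, its scaffold partner, rose by 0.69 in hGFAP tumours and by 0.44 in Oligo1 tumours. Among other vesicle proteins Syngr3 fell by 1.17 in hGFAP tumours and fell by 1.69 in Oligo1 tumours, and Syngr2 rose by 0.67 in hGFAP tumours and by 0.72 in Oligo1 tumours.

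Several of the risen genes were, like Stx1a, lower in adult than in developing cerebellum. The differences of adult from developing cerebellum were -1.7 for Doc2a, -1.53 for Stxbp6, -1.35 for Sh3gl3, -0.9 for Cask and -3.54 for Slc17a6. The tumours did not pass against developing cerebellum for Doc2a, Stxbp6, Sh3gl3 and Slc17a6, and Cask was lower in Oligo1 tumours (-0.46). Cacna2d1 was higher than in developing cerebellum by 0.96 in hGFAP tumours and by 1.23 in Oligo1 tumours.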

How the data were processed

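Each deposited value is a log2 intensity on a single-colour Affymetrix mouse gene array, for 241576 probe sets on 24 arrays. Per the submitters' processing notes, the authors used RMA from oligo 1.14 with R 2.15. RMA removes background, forces all arrays to 1 distribution and fits the probes of a set, so values are relative. RNA was prepared with TRIzol, per the labels' protocols. No source used here gives the genome build. All array columns were used (0 left out).

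Symbols came from the platform annotation: 213361 probe sets had 1 symbol, 5107 several and 23108 none, and only the first kind was used. Probe sets of a gene (median 8, and 6 to 48 for the 37 genes, 616 in all) were combined by median polish into 20893 genes. Genes with at least 3 arrays above 7.61, the table's median, were kept (10983). A probe set was called brighter by the same value.

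Each comparison was a contrast in a linear model of the 4 groups over all 24 arrays (lmFit and eBayes, limma 3.58.1, R 4.3.3; tables were read with the data.table package, version 1.17.8; figures used matplotlib 3.10.9 under Python 3.11.15), with Benjamini-Hochberg adjustment over the 10983 genes and a threshold of 0.05. The fit was tested on simulated data in which a gene had the same spread in all 4 groups. The tumours varied more than the normal arrays, so the simulation does not show how the fit behaves with such unequal spread. All adult comparisons share the adult arrays and all developing comparisons the developing arrays. The 37 genes, the roles, the wider lists and the tests were chosen with earlier results of these data known. Values per array are given, in each role, for the gene with the largest and that with the least fall in Oligo1 tumours against adult cerebellum, for genes higher in any tumour comparison and for genes called between the tumour groups. From each wider list the largest fall and rise called in that comparison are named. Arrays give no counts, and their number limits the precision. Alternatives changed the summary of probe sets, the filter, the scaling, the model, strain, the naming style of the tumour samples in the labels (tumours 1 to 4 against 5 to 8), and left out each array. Whether the naming style marks a batch is not stated in the labels.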

Additional observations from a re-analysis of the deposited data

Results flagged for a closer look

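Among 111 combinations of a gene and a group of 5 or 8 arrays, 6 had 1 array far from the others, and chance gives about 1 in 20. Syn3 was 6.29 in hGFAP tumour 7, against 8.49 in the nearest hGFAP tumour. Unc13a was 8.56 and Amph 10.65 in the same tumour, against 9.16 and 11.23 in the nearest ones. Bsn was 10 in hGFAP tumour 5, against 9.05 in the next. Syt5 was 9.03 in Oligo1 tumour 6, against 7.57 in the next, and Sv2c was 9.81 in a postnatal day 60 adult array, against 9.24 in the next.

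The contrast between the tumour groups passed for 20 of the 37 genes in the main fit. That fit shares its estimate of spread with the normal arrays, which varied less than the tumours. A fit of the tumours alone called 0 genes, and over the settings other than leaving out an array the count ranged from 0 to 30. Whether the difference from the same adult arrays differed between the tumour groups therefore depends on the fit. On the log2 scale, hGFAP tumours exceeded Oligo1 tumours by 1.72 for Rims1, 1.61 for Unc13c, 1.56 for Syt2, 1.35 for Sv2c, 1.26 for Sv2a, 1.11 for Rph3a, 1.09 for Napb, 0.96 for Pclo, 0.94 for Syt3, 0.9 for Snap25, 0.83 for Cplx1, 0.75 for Syn1, 0.74 for Rims3, 0.72 for Syp, 0.67 for Bsn, 0.65 for Vamp2, 0.64 for Sv2b, 0.48 for Synj1, 0.36 for Amph and 0.26 for Syt11. Without hGFAP tumour 5, Rims1, Snap25, Sv2b, Syt3 and Vamp2 were called.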

How the results depend on the processing

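Against adult cerebellum the number of release genes called stayed within 23 to 36 (32 in the report) in hGFAP tumours and within 30 to 37 (37 in the report) in Oligo1 tumours over the settings other than leaving out an array, and within 31 to 33 and 37 to 37 when single arrays were left out. Between hGFAP and Oligo1 tumours (20 in the report) the count was 13 with the median of the probe sets, 9 with no filter, 7 at a fold of at least 2, 6 with the naming style as a block, 6 without hGFAP tumour 5 and Oligo1 tumour 6, 0 in a fit of the tumours alone, 0 with tumours 5 to 8, 24 with tumours 1 to 4 and 30 with array weights, and leaving out single arrays gave 1 to 28. Of hGFAP tumours against developing cerebellum (11 in the report) it was 22 with array weights, 6 at a fold of at least 2, 3 with strain as a covariate, 17 with tumours 1 to 4, 7 with tumours 5 to 8, 7 without embryonic day 15 and 6 to 13 when single arrays were left out. Of Oligo1 tumours against developing cerebellum (21 in the report) it was 30 with array weights, 4 with strain as a covariate, 29 with tumours 1 to 4 and 9 with tumours 5 to 8. It was 14 without embryonic day 15 and 14 to 25 when single arrays were left out. Of adult against developing cerebellum (26 in the report) it was 14 with strain as a covariate, 14 with C57BL/6 adult arrays only and 18 to 25 when single arrays were left out. It was 34 in a fit of these 2 groups alone and 31 with array weights. The causes were not tested. Among single genes called in either fit, 1 changed sign, Syt11 in hGFAP tumours against developing cerebellum with strain as a covariate (-0.02). Deviations of same-numbered tumours from their group means had correlations from -0.5 to 0.59, with 3 of 8 pairs over 0.1. These correlations cannot exclude a pairing, since they also reflect how far each tumour lies from its group mean. With the replicate block 0 genes were called between the tumour groups. The stricter filter left 33 of the 37 genes.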
